A study of Mus musculus with 4 samples.

Results

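The genes described here are 34 mouse genes of sugar breakdown and of the response to low oxygen, taken by symbol from a named list, among the 32681 genes of the deposited table. They comprise 17 glycolytic enzymes, 6 regulators of glycolytic flux, 3 genes of oxygen sensing and 8 further targets of hypoxia signalling. Total RNA was sequenced as 4 libraries from cultures of primary neocortical neurons, made from wild-type CD-1 mouse embryos at embryonic day 13 and grown in Neurobasal medium with B27 supplement. The labels give 2 libraries from cultures that received a control shRNA (short hairpin RNA) by transfection (control 1 and control 2), and 2 from cultures transfected with an shRNA against DcpS (DcpS 1 and DcpS 2). DcpS removes the cap from the short remnants that are left once the exosome has degraded an mRNA. In both groups the titles place the library number after the word set. The labels give no sequence for either hairpin and do not say how many embryos were pooled. They also do not say whether equal library numbers mark a shared preparation. The question for these genes was whether they differed between DcpS and control cultures, and how far the DcpS libraries gave the same answer.

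Glycolysis converts glucose to pyruvate in the cytosol and yields ATP without oxygen, and neurons and astrocytes use it alongside mitochondrial respiration. Phosphofructokinase is its main control point, set in part by the PFKFB enzymes, which make and remove its activator fructose 2,6-bisphosphate. Pyruvate dehydrogenase kinases hold back the enzyme that feeds pyruvate into the citric acid cycle. When oxygen falls, prolyl hydroxylases stop marking HIF-1α for destruction, and the HIF dimer then switches on many glycolytic genes together with Vegfa, Bnip3 and other targets through DNA elements that hold the word ACGTG or GCGTG.

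Most of these genes differed little between DcpS and control cultures. Of the 33 that could be tested, Aldoc rose 1.16-fold and Pdk2 fell to 0.781 of its control level, and the other 31 did not pass a Benjamini-Hochberg adjusted p of 0.05 in limma. The 2 calls are 6.06% of the genes tested here, beside 5.79% of all 18110 genes tested, so the share lies near the background. The median log2 difference was −0.01 over these 33 genes and 0.00 over all genes. Libraries of the same group also differed from each other. In both groups, 24 of the 33 genes were higher in library 2 than in library 1 by any amount. That is 72.7%, beside 25.7% of all genes tested.

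The libraries held 17754768 to 21793685 reads recovered from the deposited values, and the targeted gene checked the labels. Dcps measured 499.8 and 506.6 normalised read counts in the controls against 114.5 and 119.6 in the DcpS libraries, a log2 difference of −2.10 (SE 0.11, limma adjusted p = 1.52e-08). Normalised read counts are reads divided by a size factor per library, and all log2 differences are on the log2(value + 1) scale. Neuron markers were present in every library at a summed 4519 to 4788 CPM (reads scaled to a common library total), with 1 of 8 called higher (Rbfox3) and 2 lower (Snap25 and Syt1). Summed astrocyte markers were 330.1 to 372 CPM and fibroblast markers 330 to 616 CPM, the latter with all 6 genes called lower, so transcripts typical of other cell types were present. Over all genes tested, 2.14% were called higher and 3.65% lower. Nothing in the labels says that the 2 libraries of a group came from separate cultures or animals, so p-values reflect only how far these libraries spread, which may be technical.

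The promoters below are shown because they belong to the genes on which the results turn. These are the 250 bases before the annotated start from RefSeq on GRCm38.p6, 5′ to 3′ on the gene's strand, with every ACGTG or GCGTG on either strand in capitals. A CACGTG counts as 2 overlapping matches. The stretch of Bnip3 (minus strand) lies at chr7:138909507-138909756 and has 5 matches. That of Ldha (start 1, plus strand) lies at chr7:46845554-46845803 and also has 5 matches. For Pdk2 (start 1, minus strand) it lies at chr11:95041372-95041621 with 2 matches, both within a single CACGTG. Aldoc (start 1, plus strand) has 1 match at chr11:78322823-78323072. Eno2 (minus strand) has 0 matches at chr6:124769674-124769923.
Bnip3: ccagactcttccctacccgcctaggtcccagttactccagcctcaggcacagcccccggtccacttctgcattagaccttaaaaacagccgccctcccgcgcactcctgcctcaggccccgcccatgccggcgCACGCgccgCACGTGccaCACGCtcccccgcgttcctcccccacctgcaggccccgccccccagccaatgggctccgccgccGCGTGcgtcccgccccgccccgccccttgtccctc
Ldha: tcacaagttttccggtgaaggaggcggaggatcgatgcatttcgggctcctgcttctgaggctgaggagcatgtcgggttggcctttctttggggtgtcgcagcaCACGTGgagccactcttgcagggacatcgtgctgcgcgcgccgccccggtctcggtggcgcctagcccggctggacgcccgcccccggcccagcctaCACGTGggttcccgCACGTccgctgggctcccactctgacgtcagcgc
Pdk2: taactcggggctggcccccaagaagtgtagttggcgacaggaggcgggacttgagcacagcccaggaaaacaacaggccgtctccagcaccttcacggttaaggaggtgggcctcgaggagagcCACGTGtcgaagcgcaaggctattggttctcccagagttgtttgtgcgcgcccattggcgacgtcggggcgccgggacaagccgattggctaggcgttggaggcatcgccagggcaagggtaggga
Aldoc: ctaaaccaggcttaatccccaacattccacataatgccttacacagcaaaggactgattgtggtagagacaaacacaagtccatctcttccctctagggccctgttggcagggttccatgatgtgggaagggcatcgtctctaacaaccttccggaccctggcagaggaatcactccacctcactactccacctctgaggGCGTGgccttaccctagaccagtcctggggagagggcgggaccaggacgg
Eno2: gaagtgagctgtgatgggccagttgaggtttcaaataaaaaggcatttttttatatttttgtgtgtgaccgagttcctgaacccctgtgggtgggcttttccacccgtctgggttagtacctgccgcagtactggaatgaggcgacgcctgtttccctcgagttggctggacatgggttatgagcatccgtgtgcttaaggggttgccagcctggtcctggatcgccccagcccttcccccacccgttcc

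The search itself used windows of 300 bases, 250 before to 50 after each start. RefSeq promoter entries matched 32 of the 34 genes, with 49 starts (Ero1l through its synonym Ero1a), and Bnip3l and Ndrg1 were not matched. Either word was found at 39 of the 49 starts (79.6%), beside 60.0% of 15065 promoters of tested genes and 43.8% of all 32851 promoters. The word ACGTG alone was at 53.1% of the starts of these genes against 24.5% for tested genes, and GCGTG at 57.1% against 48.6%. Median GC content was 61.3% for these genes and 60.3% for tested genes. A match is a description of the letters and not evidence of a bound site. For the 28 tested genes with a match at some start, the library difference described further on had medians of 0.15 log2 in the DcpS libraries and 0.09 in the controls. For the 3 with none (Eno2, Gpi1 and Tpi1) the medians were 0.26 and 0.21. With only 3 such genes, the part of a match in the library difference was not tested.

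Among the 17 glycolytic enzymes, 9 had a log2 difference above 0 and 8 below, with a median of 0.01 and a range of −0.15 to 0.21. Only Aldoc passed the test. Aldoc encodes aldolase C, the brain form of the enzyme that splits fructose 1,6-bisphosphate, and in brain it is richest in astrocytes and in some Purkinje cells. It measured 3825 and 3778 normalised read counts in control 1 and 2 and 4391 and 4395 in DcpS 1 and 2 (3802 ± 33.5 against 4393 ± 2.85, SD, n = 2 each). The groups did not overlap, and the libraries of each group lay close together. The log2 difference was 0.21 (SE 0.05, limma adjusted p = 0.0210). Without control 1 the adjusted p was 0.161 and without control 2 it was 0.231, in both cases no longer called.

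The gene lies on the plus strand of chromosome 11, from 78322968 to 78327781 on GRCm38. Astrocyte markers did not move with it: none of the 7 tested was called higher and 3 were called lower (beside 2.14% and 3.65% of all genes). Gfap, the intermediate filament of astrocytes, was at 111 and 193 normalised read counts in the controls and 78.1 and 77.1 in the DcpS libraries (log2 difference −0.91, SE 0.21, limma adjusted p = 0.0241). Gja1, a gap junction channel, differed by −0.67 (SE 0.08, limma adjusted p = 8.15e-05) and Aqp4, a water channel, by −1.13 (SE 0.25, limma adjusted p = 0.0119). The call for Gfap was lost without control 2 (adjusted p = 0.250), DcpS 1 (0.0957) or DcpS 2 (0.113), and that for Aqp4 without control 2 (0.0698) or DcpS 1 (0.0501). In a bulk culture, fewer cells of a type and less RNA per cell cannot be told apart.

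The first steps of the pathway showed no call. Hk1, the main hexokinase of brain, traps glucose as glucose 6-phosphate. It measured 2709 and 2675 normalised read counts in the controls and 2556 and 2501 in the DcpS libraries, so both DcpS libraries lay below both controls, but the log2 difference of −0.09 (SE 0.05) had a limma adjusted p of 0.381. Hk2, the inducible hexokinase, was also below the controls in both DcpS libraries (−0.13, SE 0.09, limma adjusted p = 0.487). Gpi1, which turns glucose 6-phosphate into fructose 6-phosphate, measured 6277 and 7265 in control 1 and 2 and 6127 and 7353 in DcpS 1 and 2. Here the groups overlapped fully, with both libraries numbered 2 above both numbered 1, and the group difference was −0.01 (SE 0.10).

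The phosphofructokinase genes Pfkl, Pfkm and Pfkp, named for liver, muscle and platelet, differed by −0.08, −0.01 and −0.15 log2, and none was called. Pfkp measured 4671 and 5492 normalised read counts in control 1 and 2 and 4311 and 4824 in DcpS 1 and 2 (SE 0.07, limma adjusted p = 0.307). Its groups overlapped, since DcpS 2 lay above control 1. Aldoa, the widely expressed aldolase, measured 6247, 7282, 6464 and 7917 in control 1, control 2, DcpS 1 and DcpS 2. It did not follow Aldoc: its groups overlapped and its difference was 0.08 (SE 0.11, limma adjusted p = 0.769).

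From triose phosphate onward the same arrangement recurred, with the libraries numbered 2 high and those numbered 1 low. Tpi1, the triose phosphate isomerase, measured 6152 and 6799 normalised read counts in control 1 and 2 and 6293 and 7097 in DcpS 1 and 2. Gapdh, which carries out the first oxidation of the pathway and is often used as a reference gene, measured 17206 and 18797 in the controls and 17849.6 and 20055 in the DcpS libraries. For Pgk1, which makes the first ATP, the values were 12508 and 14777 in the controls and 12968 and 15406 in the DcpS libraries. In each of these 3 genes DcpS 1 lay between the controls and DcpS 2 above both. Their log2 differences were 0.05 (SE 0.06), 0.07 (SE 0.06) and 0.06 (SE 0.10), with limma adjusted p from 0.580 to 0.842.

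Pgam1, a phosphoglycerate mutase, measured 7517 and 7988 normalised read counts in control 1 and 2 and 7468 and 8371 in DcpS 1 and 2. Eno1, the widely expressed enolase, measured 12980.2 and 14739 in the controls and 12929.8 and 14904 in the DcpS libraries, with a group difference of 0.01 (SE 0.07). In both genes the DcpS libraries spanned the range of the controls. Eno2, the enolase of mature neurons, had the widest spread among the enzymes, with 1244 and 1570.1 in control 1 and 2 and 1352 and 1853 in DcpS 1 and 2. Its group means of 1407 ± 231 and 1602 ± 354 (SD, n = 2 each) overlapped, and the difference of 0.18 (SE 0.23) had a limma adjusted p of 0.774.

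The last steps gave 1 gene with an unadjusted p under 0.05. Pkm, the pyruvate kinase of muscle, brain and dividing cells, measured 21398 and 22239 normalised read counts in the controls and 20588 and 22105 in the DcpS libraries (−0.03, SE 0.05). Ldha, the lactate dehydrogenase subunit that favours lactate formation, measured 10358 and 11423 in control 1 and 2 and 10768 and 12344 in DcpS 1 and 2 (0.08, SE 0.07, limma adjusted p = 0.552). Ldhb, the subunit typical of heart and oxidative cells, measured 3426 and 3446 in the controls and 3055 and 3262 in the DcpS libraries. Both DcpS values of Ldhb were below both controls (3159 ± 146 against 3436 ± 13.8, SD, n = 2 each), but the difference of −0.12 (SE 0.05) had a limma adjusted p of 0.228.

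**Figure D1:**
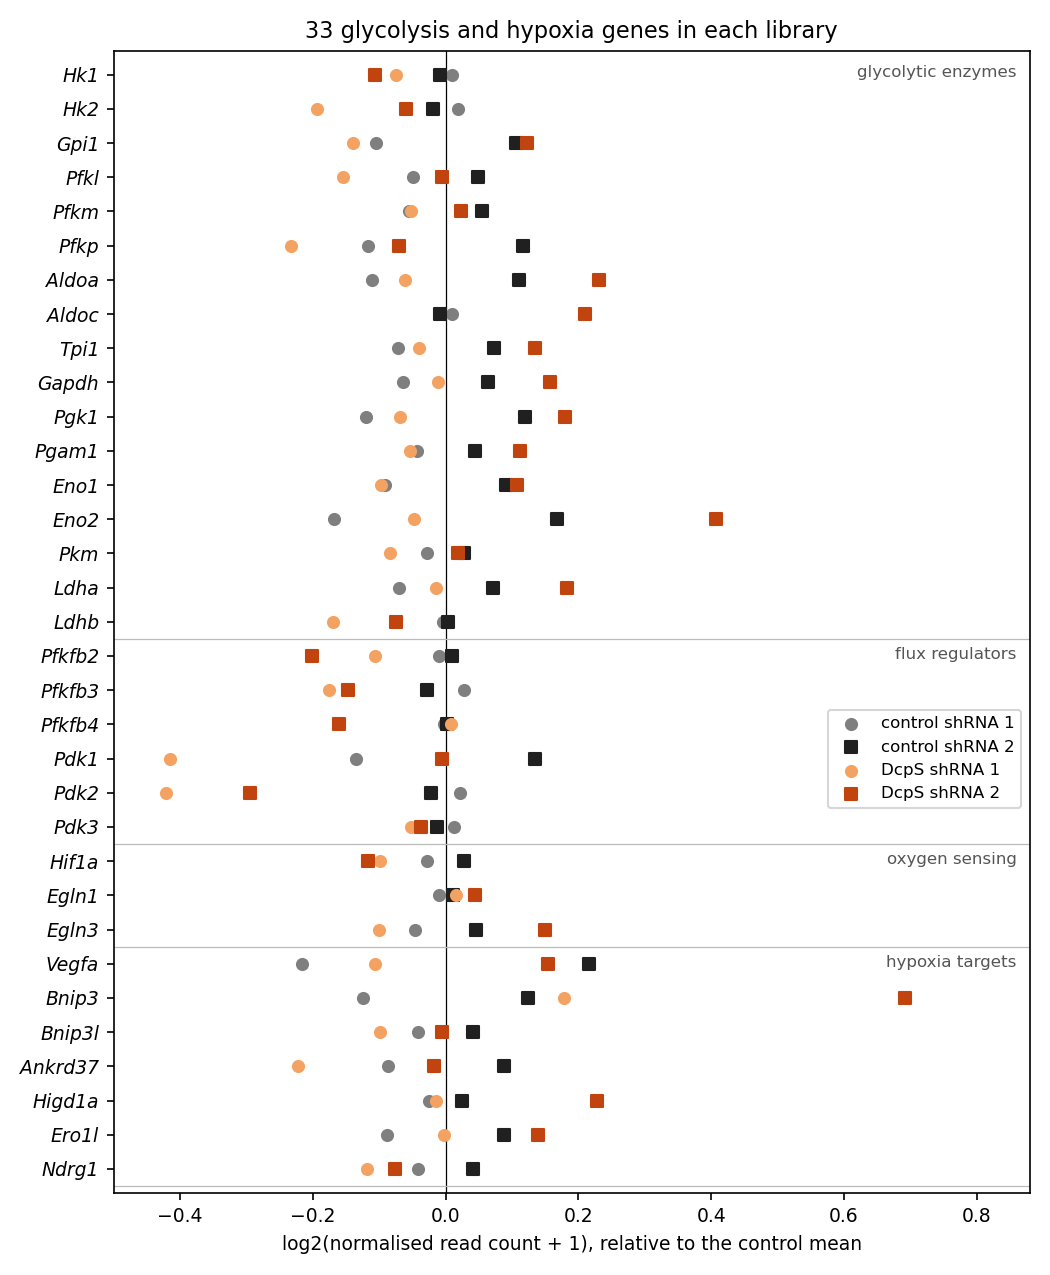
Level of each of the 33 tested genes in each library as log2(normalised read count + 1) relative to the mean of the controls (x axis), with library 1 of each group as circles, library 2 as squares, controls in grey and black and DcpS libraries in orange and red. For most glycolytic enzymes the squares lie to the right of the circles in both groups, and for Aldoc, whose DcpS values of 4391 and 4395 coincide, both DcpS libraries lie to the right of the controls.

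The levels of these genes can be compared with each other only per length, and here that is reads per kilobase of the longest annotated coding transcript, scaled to a common total over 13817 genes. Gapdh had the highest level in the controls at 1896 ± 129.8 on this scale (SD, n = 2), followed by Pkm at 1341 ± 44.5 and Pgk1 at 1118 ± 138. Next came Eno1 at 1022 and Ldha at 897, and then Aldoa and Pgam1 at 653 each. The neighbours Pgk1 and Eno1, Eno1 and Ldha, and Aldoa, Pgam1 and Tpi1 (603) overlapped within 1 SD of the controls. The lowest enzyme was Hk2 at 11.5, and the lowest of all 33 genes was Ankrd37 at 3.11. The order depends on the length used: with the union of all exons, Pgk1 came first at 918, ahead of Pkm at 658 and Gapdh at 657.

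**Figure D2:**
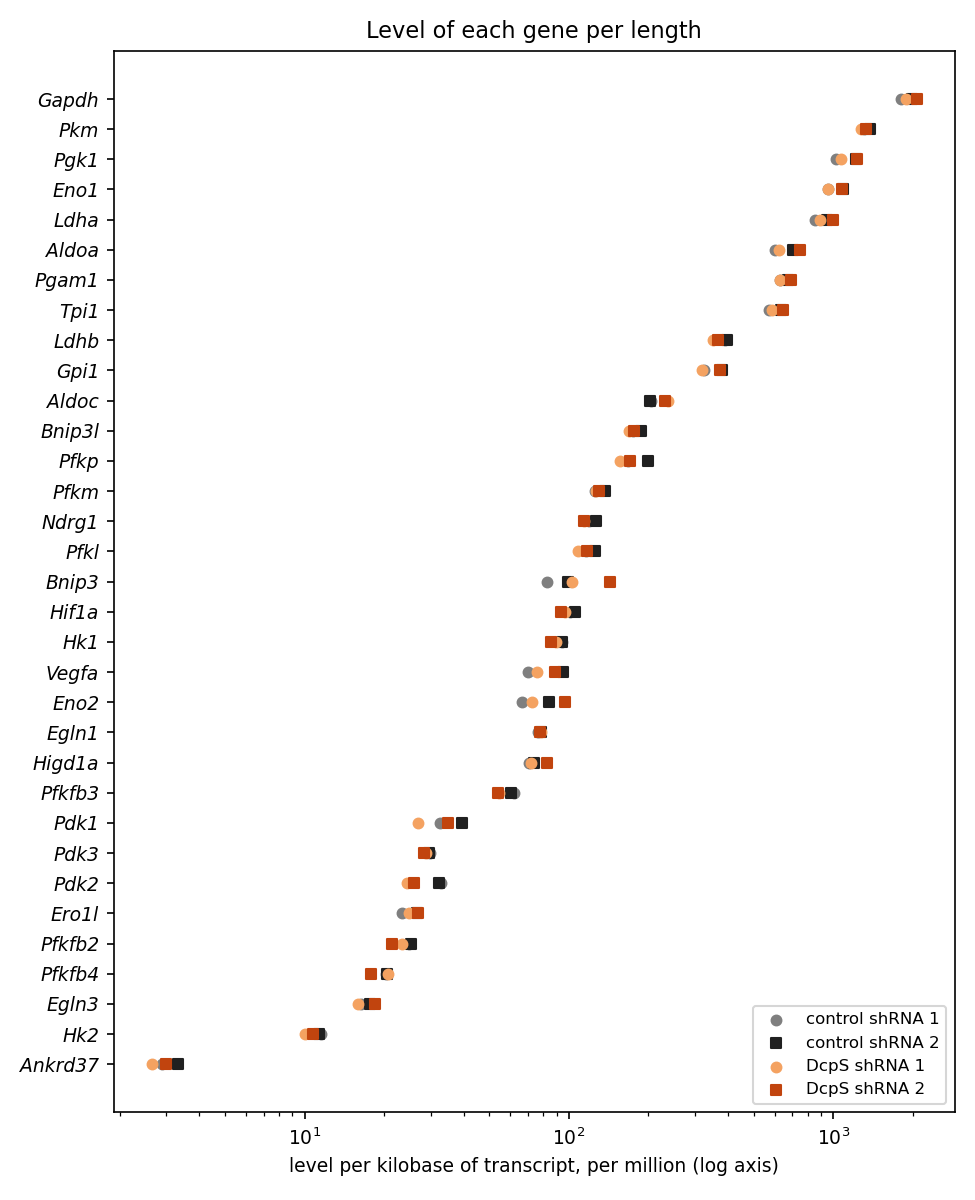
Level of each of the 33 tested genes per kilobase of its longest coding transcript, scaled to a common total (x axis, log scale) in the 4 libraries. Gapdh, at a control mean of 1896, lies at the top and Ankrd37, at 3.11, at the bottom, and the spread between libraries of a gene is small beside the range between genes.

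Within a step, the share of each isozyme in these per-length levels varied by a few percentage points between the libraries, other than for mitophagy receptors described further on. Hk1 made up 88.8% to 89.9% of the hexokinase level summed over Hk1 and Hk2, against 81.7% with the union of exons in the controls. Aldoc made up 25.4% and 22.4% of the aldolase level in control 1 and 2 and 27.4% and 23.6% in DcpS 1 and 2, so the ranges of the groups overlapped even though Aldoc itself was called. Ldha made up 68.5% and 70.4% of the lactate dehydrogenase level in the controls and 71.7% and 73.1% in the DcpS libraries, without overlap. The share of Eno2 in the enolase level ran from 6.5% in control 1 to 8.27% in DcpS 2. Among the phosphofructokinases Pfkp led with 39.9% to 43.2%, but this order rests on the length, since with the union of exons Pfkm led with 47.6% in the controls and Pfkp had 23.9%.

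The 6 regulators of flux all had log2 differences below 0, with a median of −0.16, and 1 of them, Pdk2, passed the test. Pdk2 is a pyruvate dehydrogenase kinase, which phosphorylates and so restrains the enzyme that feeds pyruvate into the citric acid cycle. It measured 497 and 482 normalised read counts in control 1 and 2 and 365 and 399 in DcpS 1 and 2 (489 ± 10.6 against 382 ± 23.8, SD, n = 2 each). The groups did not overlap, and the log2 difference was −0.36 (SE 0.09, limma adjusted p = 0.0201). The call was lost without control 1 (0.106), without control 2 (0.0557), without DcpS 1 (0.0713) and with DESeq2 (0.156). Pdk2 lies on the minus strand of chromosome 11, from 95026258 to 95041354 on GRCm38.

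Pdk1, the kinase of the same family that HIF induces, did not pass the test. It measured 1129 and 1362 normalised read counts in control 1 and 2 and 929 and 1235 in DcpS 1 and 2, a log2 difference of −0.21 (SE 0.16, limma adjusted p = 0.578). DcpS 1 was the lowest of the 4 libraries, while DcpS 2 lay between the controls. With library number as a block Pdk1 was called lower, but the labels do not give the numbers as pairs. Pdk3 lay below both controls in both DcpS libraries by a small margin (−0.04, SE 0.08, limma adjusted p = 0.840). Per length, Pdk1, Pdk2 and Pdk3 lay at 35.9, 32.6 and 29.8 in the controls, with Pdk2 at 34.6% and 31.8% of their sum in control 1 and 2 and at 30.5% and 29.1% in DcpS 1 and 2.

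Of the PFKFB genes, Pfkfb3, the isoform with the strongest kinase activity, measured 2002 and 1926 normalised read counts in the controls and 1738 and 1773 in the DcpS libraries. Both DcpS libraries of Pfkfb3 lay below both controls (1756 ± 25.0 against 1964 ± 53.8, SD, n = 2 each), and the difference of −0.16 (SE 0.05) had a limma adjusted p of 0.106. Pfkfb2 measured 737 and 748 in the controls and 689.6 and 646 in the DcpS libraries (−0.15, SE 0.07, limma adjusted p = 0.252), again without overlap. Pfkfb4 differed by −0.08 (SE 0.09) and its groups overlapped. Pfkfb3 made up 55.3% to 58.0% of the per-length level of these 3 genes in the 4 libraries.

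Across all 33 genes, 5 had an unadjusted p under 0.05 (15.2%, beside 18.7% of all genes tested), namely Aldoc, Ldhb, Pfkfb2, Pfkfb3 and Pdk2. Both DcpS libraries lay above both controls for 3 genes (9.09%, beside 24.4% of all genes), Aldoc, Egln1 and Bnip3. They lay below both controls for 9 genes (27.3%, beside 24% of all genes), namely Hk1, Hk2, Ldhb, Pfkfb2, Pfkfb3, Pdk2, Pdk3, Hif1a and Ndrg1. The share separated on the higher side was thus below that of all genes, and the share on the lower side was near it.

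**Figure D3:**
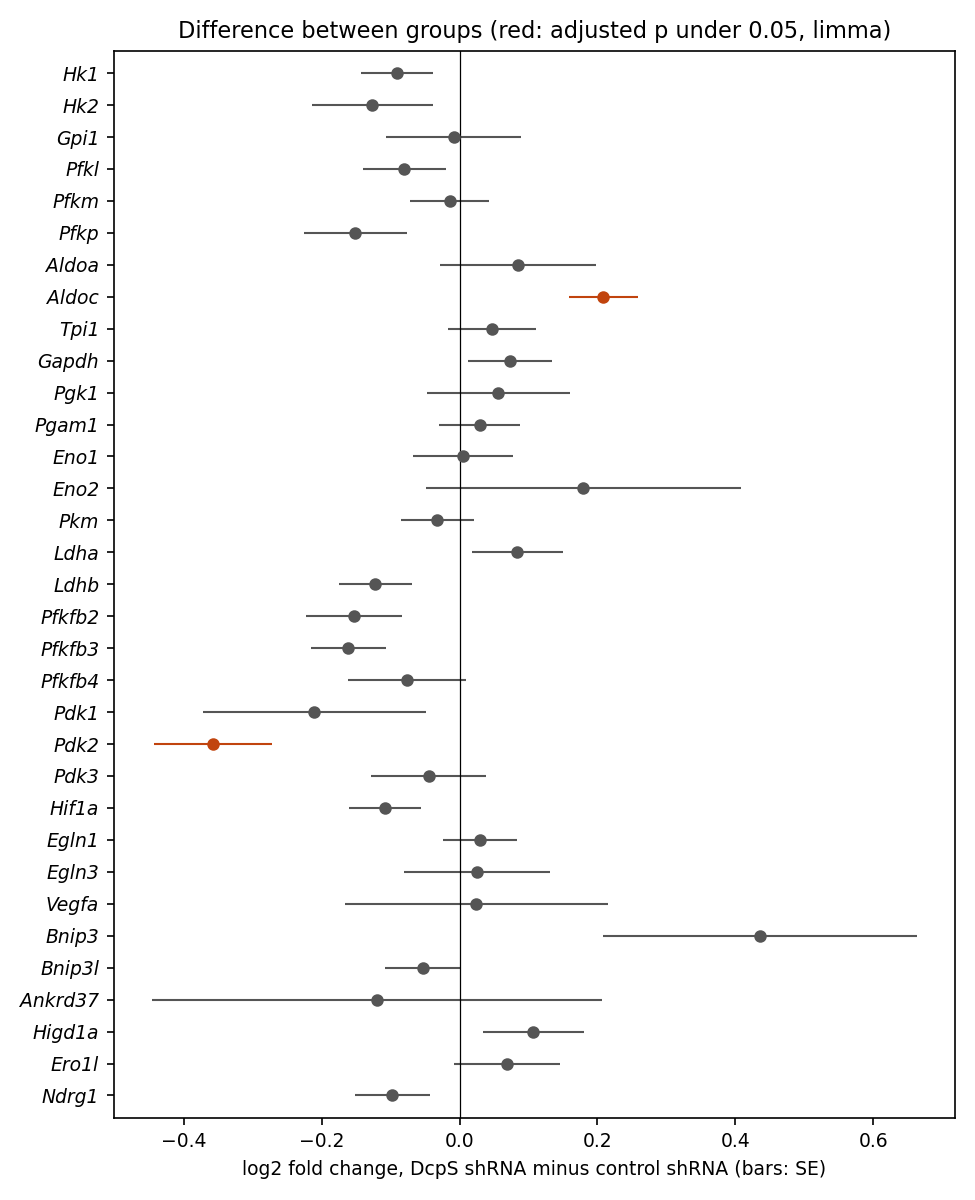
Log2 difference of DcpS minus control shRNA for each of the 33 tested genes (x axis), with its standard error as bars and the 2 genes that passed the limma test in red. Aldoc at 0.21 and Pdk2 at −0.36 are the called genes, while Bnip3 at 0.44 is further from 0 than both but has a wide bar.

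The 3 genes of oxygen sensing were not called. Hif1a, the oxygen-regulated subunit of the HIF dimer, lay below both controls in both DcpS libraries, with a log2 difference of −0.11 (SE 0.05, limma adjusted p = 0.279). Its protein is set mainly by degradation, which RNA does not measure. Egln1, the main HIF prolyl hydroxylase, differed by 0.03 (SE 0.05). Egln3, a hydroxylase that HIF itself induces, measured 294 and 313 normalised read counts in control 1 and 2 and 283 and 336 in DcpS 1 and 2. The groups of Egln3 overlapped, with a difference of 0.02 (SE 0.11).

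Among the hypoxia targets, 7 of 8 could be tested, none was called, and the median log2 difference was 0.02. Bnip3, a receptor on mitochondria that marks them for autophagy, had the largest difference of all 33 genes. It measured 979 and 1163 normalised read counts in control 1 and 2 and 1207 and 1724 in DcpS 1 and 2 (1071 ± 130.3 against 1466 ± 365, SD, n = 2 each). Both DcpS libraries lay above both controls, but DcpS 1 exceeded control 2 only slightly and DcpS 2 stood apart. The group difference of 0.44 (SE 0.23) had a limma adjusted p of 0.453. It was called with edgeR (adjusted p = 0.0349) but not with DESeq2 (adjusted p = 0.673). A fit with library number as a block also called Bnip3, but the labels do not give the numbers as pairs. Bnip3 lies on the minus strand of chromosome 7, from 138890836 to 138909519 on GRCm38.

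Bnip3l, the close relative of Bnip3 in the same process, did not share this pattern and differed by −0.05 (SE 0.05, limma adjusted p = 0.676). In per-length levels Bnip3 made up 32.2% and 34.8% of the sum of both genes in control 1 and 2, 37.9% in DcpS 1 and 44.9% in DcpS 2. The share was higher in both DcpS libraries than in both controls. Vegfa, the growth factor for blood vessels, measured 1618 and 2185 in control 1 and 2 and 1747 and 2093 in DcpS 1 and 2. For Vegfa both DcpS values lay between the controls, and the group difference was 0.02 (SE 0.19).

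Higd1a, a small protein of the inner mitochondrial membrane, measured 1058 and 1094 normalised read counts in control 1 and 2 and 1065 and 1261 in DcpS 1 and 2. Only DcpS 2 lay outside the range of the controls, and the difference was 0.11 (SE 0.07, limma adjusted p = 0.481). Ero1l, an oxidase of the endoplasmic reticulum, Ndrg1, a stress-induced gene, and Ankrd37 differed by 0.07, −0.10 and −0.12, with limma adjusted p from 0.368 to 0.898. Ankrd37 had 16.4 to 20.5 normalised read counts, so its SE was 0.33 and only a large change could have been seen. Adm, which encodes adrenomedullin, had 1, 6, 4 and 1 reads in control 1, control 2, DcpS 1 and DcpS 2 and did not pass the filter on low counts. A total of 3 reads, which a count of 0 would allow, is 0.138 to 0.169 CPM at these depths. This limit covers counting error only and does not bound Adm, which had reads in every library.

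**Figure D4:**
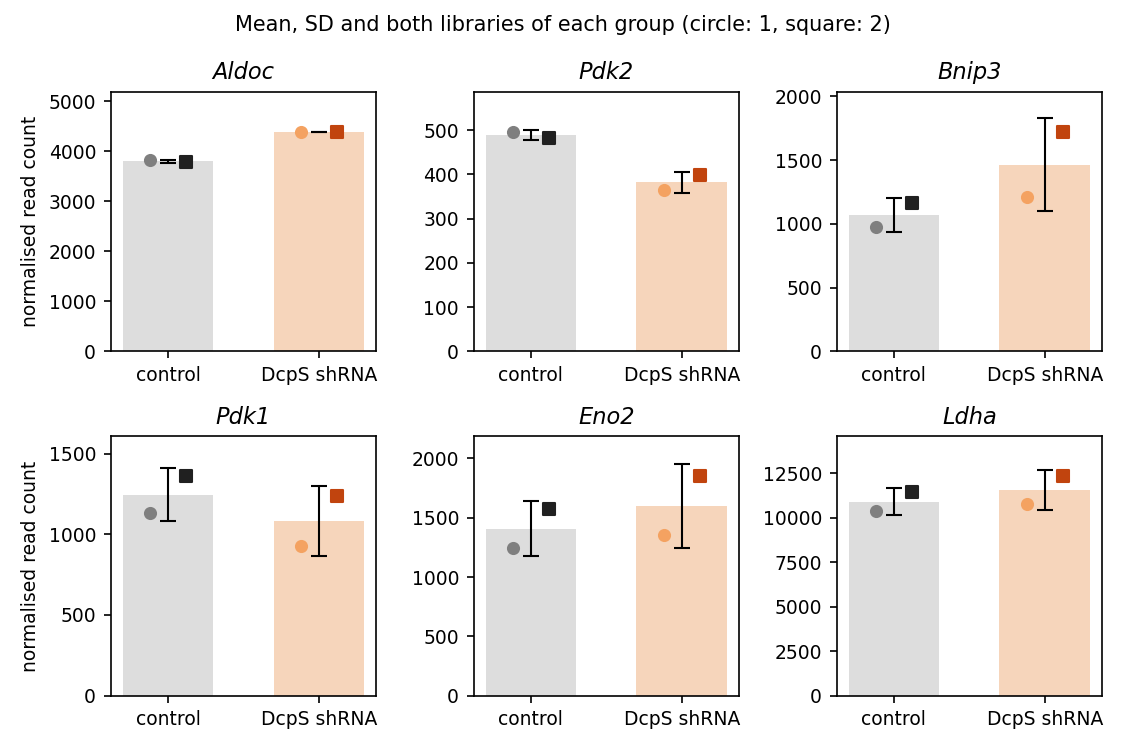
Normalised read counts of 6 genes (y axes from 0), with bars at the mean of each group, error bars for the SD (n = 2) and points for library 1 (circle) and library 2 (square). The points of Aldoc, Pdk2 and Bnip3 separate by group. In Bnip3, Pdk1, Eno2 and Ldha the square lies above the circle in both groups.

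The DcpS libraries were then compared with each other. Of the 33 genes, 29 (87.9%) were higher in DcpS 2 than in DcpS 1, beside 50.5% of all genes tested, and the median difference was 0.15 log2 beside 0.00 over all genes. The exceptions were Hk1, Pfkfb2, Pfkfb4 and Hif1a. A difference of at least 0.1 log2 upward was seen for 21 genes (63.6%, beside 26.8% of all genes) and downward for 1, Pfkfb4 (3.03%, beside 27.4%). Only Eno2, Pdk1 and Bnip3 reached 0.3 (9.09%, beside 8.67%). Where the background was limited to genes averaging 5 CPM or more, a level that 32 of these 33 genes reached, 2.08% had such a difference of 0.3, 20.2% one of 0.1 upward and 21% one of 0.1 downward.

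Control libraries differed in the same direction. Control 2 was above control 1 for 27 of the 33 genes (81.8%, beside 50.4% of all genes and 50.3% of those averaging 5 CPM or more), with a median difference of 0.09 log2 beside 0.00. By at least 0.1 log2, 15 genes were higher in control 2 (45.5%, beside 24.7%) and 0 lower (beside 24.2%), and among genes averaging 5 CPM or more these backgrounds were 16.5% and 16.9%. Library 2 exceeded library 1 in both groups for 24 genes (72.7%, beside 25.7% of all genes and 25.6% of those averaging 5 CPM or more), and it was lower in both for 1, Hk1 (3.03%, beside 24.8%). The count of 24 was the same with the deposited scaling, with TMM and with scaling to the library total.

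By at least 0.1 log2 in both groups, 14 genes were higher in library 2 (42.4%, beside 8.85% of all genes and 4.51% of genes with at least 5 CPM). These were Gpi1, Pfkp, Aldoa, Tpi1, Gapdh, Pgk1, Eno1, Eno2, Ldha, Pdk1, Vegfa, Bnip3, Ankrd37 and Ero1l. They include enzymes of most steps of glycolysis and hypoxia targets outside it. For Eno2 the difference was 0.45 log2 in the DcpS libraries (95% interval from counting error 0.35 to 0.56) and 0.34 in the controls (0.23 to 0.44). Pdk1 gave 0.41 (0.29 to 0.53) and 0.27 (0.16 to 0.38), and Bnip3 0.51 (0.41 to 0.62) and 0.25 (0.13 to 0.37). Vegfa went the other way in size, with 0.26 (0.17 to 0.35) in the DcpS libraries and 0.43 (0.34 to 0.53) in the controls.

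Most abundant enzymes were higher in library 2 in both groups, and the size was larger in the DcpS libraries for each of the 7 given next but not for Pfkp (0.16 against 0.23 in the controls). Aldoa gave 0.29 in the DcpS libraries and 0.22 in the controls, Gpi1 0.26 and 0.21, Pgk1 0.25 and 0.24, Eno1 0.20 and 0.18, and Ldha 0.20 and 0.14. Pgam1 gave 0.16 and 0.09 and Pkm 0.10 and 0.06. The counting intervals of these differences overlapped between the groups for each of these 7 genes, and no test was made of them. Library 2 was higher beyond the counting interval for 19 of 33 genes (57.6%) in each group, beside 8.03% of all genes in the DcpS libraries and 6.46% in the controls (10.4% and 7.88% of genes averaging 5 CPM or more). It was lower beyond the interval for 0, beside 10.3% and 6.96% (13.8% and 8.98% of genes averaging 5 CPM or more). Such intervals hold only the error of counting reads and narrow as reads increase, and many of these genes are abundant.

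**Figure D5:**
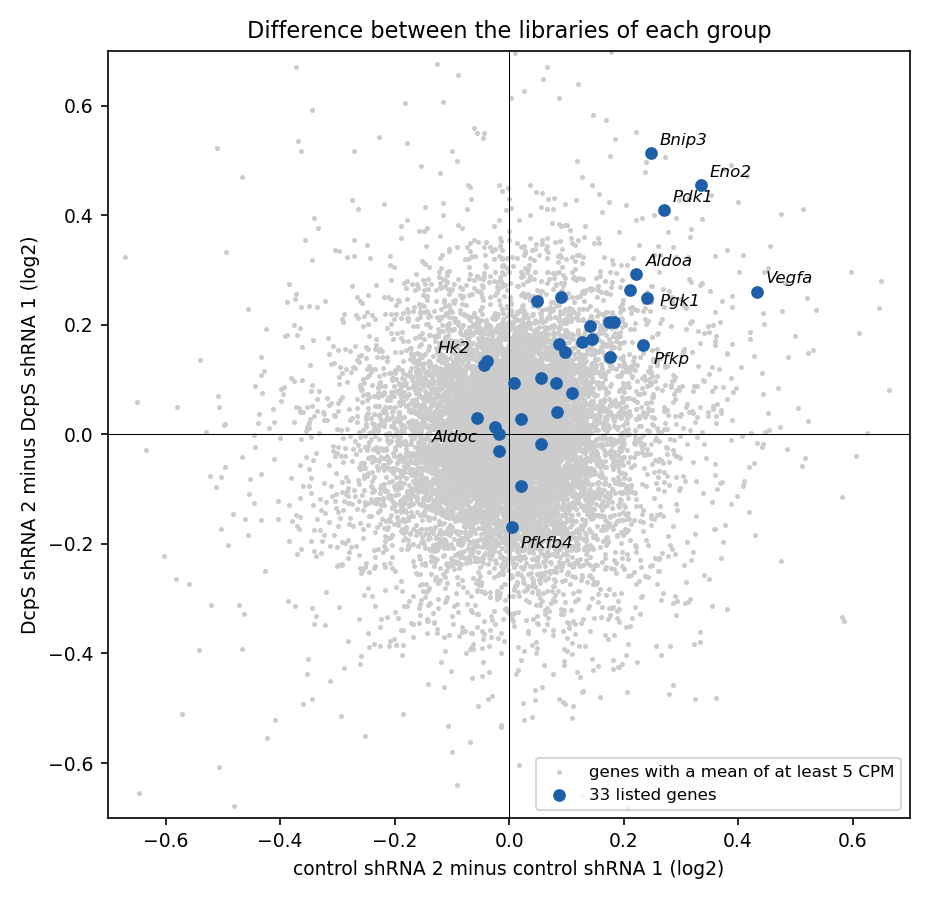
Log2 difference between library 2 and library 1 among the controls (x axis) and among the DcpS libraries (y axis) for the 33 tested genes (blue) and for 12289 genes averaging 5 CPM or more (grey, 35 of them outside the axes). Of the 33 blue points, 24 lie above 0 on both axes, where library 2 is higher in both groups, while the grey points centre on 0.

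By role, the difference between libraries was seen in the enzymes and the hypoxia targets and hardly in the regulators. Its median in the DcpS libraries and in the controls was 0.16 and 0.13 for the 17 enzymes. Among the 7 hypoxia targets it was 0.20 and 0.18. For the 6 flux regulators it was 0.02 and −0.01, and for the 3 oxygen sensing genes 0.03 and 0.06. Library 2 was higher in both groups for 14 of 17 enzymes, 7 of 7 targets, 1 of 6 regulators (Pdk1) and 2 of 3 sensing genes. No test was made of the difference between these roles. Aldoc, the enzyme that was called, was also the enzyme with the smallest difference between the DcpS libraries, at 0.00. The test itself draws on the spread between libraries of a group, so this is no separate support for the call.

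Across the 33 genes, the difference in the DcpS libraries and that in the controls had a Pearson's r of 0.75 and a Spearman's rho of 0.80, beside 0.04 and 0.04 across all 18110 genes. These are descriptions across genes of the same 4 libraries, and genes are not independent replicates. In each group library 2 was also the shallower, with 19310652 against 20868871 reads in the controls and 17754768 against 21793685 with DcpS shRNA. The share of reads from mitochondrial genes was 2.56% and 2.58% in control 1 and 2 and 2.44% and 2.71% in DcpS 1 and 2. Red blood cell markers summed to 18.8 and 9.79 CPM in control 1 and 2 and to 14.4 and 20.1 CPM in DcpS 1 and 2, and so moved in opposite directions in the groups. The part of depth and of mitochondrial reads in the library difference was not tested.

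Set against both controls, each DcpS library gave its own list of calls. These fits share their controls, and the single DcpS library is assumed to vary as the controls do. The DcpS libraries in fact spread more (chi-square per degree of freedom 3.73 against 2.04), so these fits may call too many genes. For DcpS 1, limma called 1 gene higher (3.03%, beside 2.51% of all genes), Aldoc, and 3 lower (9.09%, beside 3.83%), Ldhb, Pdk1 and Pdk2. For DcpS 2, limma called 5 higher (15.2%, beside 2.71%), Aldoc, Gapdh, Ldha, Bnip3 and Higd1a, and 0 lower (beside 5.24%). Each DcpS library alone would thus describe these genes differently, DcpS 1 with more lower calls and DcpS 2 with more higher ones. DcpS 1 lay below the control mean for 29 genes (87.9%, beside 48.9% of all genes), the exceptions being Aldoc, Egln1, Pfkfb4 and Bnip3. DcpS 2 lay above it for 18 (54.5%, beside 50.7%).

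Aldoc was the gene on which both fits gave the same value, 0.21 with DcpS 1 (Benjamini-Hochberg adjusted p = 0.00868, limma) and 0.21 with DcpS 2 (0.00609). Pdk2 was at −0.42 with DcpS 1 (0.00950) and at −0.29 with DcpS 2 (0.0713), so only the former passed. Ldhb gave −0.17 (0.0468) and −0.07 (0.455). These 3 genes kept their direction in both libraries, and none of them was among the 14 genes with a library difference of 0.1 in both groups. A small spread between libraries also favours a call, so their absence there is no separate support.

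Other genes gave a call in a single DcpS library only. Pdk1 was at −0.42 with DcpS 1 (limma adjusted p = 0.0122) and at −0.01 with DcpS 2 (0.983). Bnip3 was at 0.18 with DcpS 1 (0.283) and at 0.69 with DcpS 2 (2.64e-05). Gapdh gave −0.01 (0.943) and 0.16 (0.0300), Ldha −0.01 (0.930) and 0.18 (0.0229), and Higd1a −0.01 (0.952) and 0.23 (0.0390). Measured against the control of the same number instead, these genes differed less between the DcpS libraries, though Higd1a only slightly less. Ldha was 0.06 above control 1 in DcpS 1 and 0.11 above control 2 in DcpS 2. Gapdh gave 0.05 and 0.09, Pdk1 −0.28 and −0.14, and Higd1a 0.01 and 0.20. Bnip3 was 0.30 and 0.57 above its equal-numbered control. The labels do not give the numbers as pairs, so these values carry no test.

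The other genes of the pathway were taken from lists of transporters, further enzymes and further HIF-related genes. Of 11 tested transporters of glucose, lactate and pyruvate, 1 was called higher and 0 lower, beside 2.14% and 3.65% of all genes. The called gene was Slc16a7, the neuronal carrier of lactate and pyruvate (0.32, SE 0.09, limma adjusted p = 0.0494). It lost its call without any of control 1 (adjusted p = 0.192), control 2 (0.0939) or DcpS 1 (0.243), and with TMM scaling (0.0527). The median over the 11 was 0.02. No gene was called among 7 of glycogen metabolism (median 0.00), 7 of the pentose phosphate pathway (0.00) and 9 of the pyruvate dehydrogenase complex and its regulators (−0.05).

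Further enzymes of glycolysis and its branches gave 4 calls higher and 0 lower among 17 tested, with a median of 0.03, beside 2.14% of all genes called higher. Pgm1, a phosphoglucomutase by its name, measured 267 and 315 normalised read counts in the controls and 419 and 492 in the DcpS libraries. Genes are named by symbol alone, so it is uncertain whether this one is the phosphoglucomutase that links glycogen with glycolysis. The groups of Pgm1 did not overlap, and the difference of 0.64 (SE 0.11, limma adjusted p = 0.00133) was called under every setting tried. Like the enzymes above, Pgm1 was higher in library 2 in both groups, by 0.23 and 0.24. The other called enzymes of this list, named below, were not. Of the 17 tested, 8 were higher in library 2 in both groups, beside 25.7% of all genes. Pgm2, the other phosphoglucomutase symbol that could be meant, was not called. It measured 479 and 459 in the controls and 484 and 464 in the DcpS libraries (0.01, SE 0.08, limma adjusted p = 0.953).

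Pgm2l1, the glucose 1,6-bisphosphate synthase of brain, rose by 0.23 (SE 0.06, limma adjusted p = 0.0191) and lost its call without control 1 (0.184) or control 2 (0.0610). Pgp, a phosphatase that clears side products of glycolysis, rose by 0.31 (SE 0.08, limma adjusted p = 0.0280) and lost it without control 2 (0.208) or DcpS 2 (0.0890). Gpd2, the mitochondrial glycerol 3-phosphate dehydrogenase, rose by 0.24 (SE 0.07, limma adjusted p = 0.0448) and lost it without control 1 (0.356), DcpS 1 (0.0730) or DcpS 2 (0.0645). These 4 enzymes lie beside the main line of glycolysis and not within it.

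Among 13 further genes of oxygen sensing and the HIF subunits, 0 were called higher and 1 lower (beside 3.65% of all genes), and the median was 0.04. That gene was Epas1, which encodes HIF-2α and is rich in endothelial cells and some glia. It measured 75.1 and 86.1 normalised read counts in the controls and 51.8 and 36.9 in the DcpS libraries (−0.86, SE 0.21, limma adjusted p = 0.0224). Its call was lost without control 2 (0.136) or DcpS 2 (0.115). Summed endothelial markers were 6.47 and 8.65 CPM in the controls and 5.09 and 5.41 CPM with DcpS shRNA, with 1 of 4 tested called lower (Kdr), and Cldn5 at 0 in control 2 and DcpS 2. Mural markers were 36.3 and 37.3 CPM against 23.2 and 21.3 CPM, with Pdgfrb and Acta2 of 5 called lower. Their part in the value of Epas1 was not tested.

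Of 32 other hypoxia targets, 1 was called higher, Pgm1 again, and 2 lower (beside 2.14% and 3.65% of all genes). Pgm1 entered this list by its symbol, and whether the target meant is instead the gene named Pgm2 was not tested. Their median was −0.03. Ak4, a mitochondrial adenylate kinase, fell from 514 and 495 normalised read counts in the controls to 313 and 381 with DcpS shRNA (−0.55, SE 0.10, limma adjusted p = 0.00262), and it was called under every setting tried. Car12, a carbonic anhydrase of the cell surface, fell by 0.37 (SE 0.10, limma adjusted p = 0.0486). It lost its call without control 2 (0.430), DcpS 1 (0.0739) or DcpS 2 (0.0732). Fibroblast markers, all 6 of which were called lower, summed to 560 and 616 CPM in the controls and to 341 and 330 CPM with DcpS shRNA, and their part in these values was not tested.

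A further target, P4ha1, was chosen after its values were seen. It encodes a collagen prolyl hydroxylase and measured 707 and 719.9 normalised read counts in the controls and 354 and 548 in the DcpS libraries. The groups did not overlap, but the DcpS libraries differed by 0.63 log2, and the difference of −0.69 (SE 0.21) had a limma adjusted p of 0.163 (0.00336 with edgeR). Against both controls, P4ha1 was at −1.01 with DcpS 1 and −0.38 with DcpS 2. The controls of P4ha1 differed by 0.03.

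The difference between libraries was smaller at the median in these other targets, which was not tested. DcpS 2 was above DcpS 1 for 24 of the 32 other targets and control 2 above control 1 for 21, with 16 higher in both, and the medians were 0.08 and 0.03. These lists share Slc2a1, Slc2a3, Slc16a3, Gys1, Gbe1 and Pgm1 with the lists above and were chosen with results of these data known, so they are no independent evidence. Further marker lists gave 0 of 7 microglial and macrophage genes called (9.77 to 10.4 CPM) and 0 of 5 red blood cell genes. Of 6 oligodendrocyte lineage genes, 1 was called higher (Mbp) and 1 lower (Pdgfra). Of 4 choroid plexus genes, 2 were called lower (Ttr and Aqp1). Beside these, 2.14% of all genes were called higher and 3.65% lower.

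Several of these enzymes have near-identical copies in the genome, and how reads that fit more than 1 copy were counted is not given in the sources used here. Eno1b measured 6605 and 7709.9 normalised read counts in control 1 and 2 and 6626 and 7754 in DcpS 1 and 2, Pgk1-rs7 measured 2603 and 2952 and then 2693 and 3122, and Pgam1-ps2 measured 2039 and 2109.5 and then 1968 and 2098. These 3 copies were higher in library 2 in both groups, as were Eno1, Pgk1 and Pgam1, for example Eno1b by 0.23 and 0.22 in the DcpS and control libraries against 0.20 and 0.18 for Eno1. The low copies did not follow: Ldha-ps2, at 59.2 to 72.2 normalised read counts, differed by −0.16 and −0.18, and Tpi-rs11, at 121 to 145, by 0.21 and −0.23. Values of Eno1, Pgk1 and Pgam1, and of Gapdh, Ldha and Tpi1, which also have copies, are uncertain to that extent.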

How the data were processed

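The authors deposited 1 table of 32681 genes by symbol, whose values are a signal: reads divided by a size factor per library. The submitters' processing notes name HISAT2 2.2.0, SAMtools 1.3.1, Picard, featureCounts, DESeq2 and GRCm38, without roles. Not given in the sources used here are the annotation, the strand setting and how reads that fit several genes were treated. Dividing each column by its smallest step gave whole reads for 100% of values (tolerance 0.001), and the implied factors (1.05, 0.975, 1.10 and 0.895) equalled median-of-ratios size factors.

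The main test was limma 3.58.1 (R 4.3.3) on log2(value + 1), with a trended and robust eBayes step and no covariate besides group, over 18110 genes that passed edgeR's filterByExpr at a minimum count of 10, two-sided, with calls at a Benjamini-Hochberg adjusted p below 0.05. An exact permutation test of 2 against 2 libraries cannot go below 0.333. On simulated reads for this comparison (18110 genes, 200 changed), 48%, 68%, 80% and 96% of genes changed by 1.3-, 1.5-, 2- and 4-fold were recovered, and 6 of 152 calls were false. The simulation drew each gene independently, so these rates need not hold for genes that shift together within a library. Libraries of a group differed beyond sampling noise (chi-square per degree of freedom 2.04 in the controls and 3.73 with DcpS shRNA).

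Alternatives were TMM and library-total scaling, other pseudocounts and filters, edgeR 4.0.16 and DESeq2 1.42.0 on the recovered reads, a replicate block, and leaving out each library. Transcript lengths came from GENCODE M21 and promoter sequences from RefSeq on GRCm38.p6. The genes and lists were chosen with earlier results of these data known. Every listed gene is named. Values in each library are printed for genes called, with an unadjusted p under 0.05, among the 10 largest differences between the DcpS libraries, or highest at their enzymatic step, and genes of the other pathway lists are named if called. For 1 gene of the other lists, results are not reported here, and it is left out of its list's counts.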

Additional observations from a re-analysis of the deposited data

How the results depend on the processing

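The count of genes called higher was 1 in limma, 2 with edgeR and 0 to 5 when single libraries were left out, and the count called lower was 1, 0 with DESeq2 and 0 to 3. The median log2 difference stayed between −0.08 and 0.04 when single libraries were left out. Equal replicate numbers were not shown to pair the libraries (correlation of deviations 0.0429 over all genes). With the replicate block 2 genes were called higher and 2 lower, adding Bnip3 (adjusted p = 4.25e-08) and Pdk1 (0.0230), and over all genes 1626 were called in place of 1048. DESeq2 called 448 of all genes, and leaving out control 1, control 2, DcpS 1 or DcpS 2 called 670, 594, 1439 or 1148.

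Directions reversed only when a library was left out, in 16 genes, none of them called by limma in all 4 libraries. Their log2 differences then ranged from −0.14 to 0.12 for Gpi1, −0.070 to 0.041 for Pfkm, −0.061 to 0.23 for Aldoa, −0.040 to 0.13 for Tpi1, −0.011 to 0.16 for Gapdh, −0.068 to 0.18 for Pgk1, −0.053 to 0.11 for Pgam1, −0.097 to 0.11 for Eno1, −0.048 to 0.41 for Eno2, −0.083 to 0.019 for Pkm, −0.015 to 0.18 for Ldha, −0.16 to 0.0086 for Pfkfb4, −0.10 to 0.15 for Egln3, −0.19 to 0.24 for Vegfa, −0.015 to 0.23 for Higd1a and −0.019 to 0.16 for Ero1l. Fewer libraries enter these fits, and no other cause was tested. With 2 libraries a group and few reads for Ankrd37 and Adm, only large changes of these 2 genes could be seen.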
